A study of Mus musculus with 6 samples.

Results

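Ribosome densities of 10 immediate early genes, Fos, Fosb, Jun, Junb, Jund, Egr1, Atf3, Ier2, Ier3 and Zfp36, were compared across 6 Ribo-seq libraries of mouse tissues. The members were taken by gene symbol, as the rows whose Ensembl gene ID carries one of these names, and all 10 were found among the 18437 mRNAs listed in any library. Ribo-seq sequences the mRNA fragments that translating ribosomes protect from nuclease. The mice were of genotype WT and strain C57BL/6J, were 4 weeks old and received no treatment, and 1 library each was labelled heart, lung, brain, kidney, small intestine and colon. Fresh tissue was rinsed in cold PBS and lysed with cycloheximide, a drug that stalls ribosomes, and the time from death to lysis is not given in the sources used here. All levels are RPKM as deposited, that is, reads on the coding sequence (CDS) per kilobase of CDS and per 1000000 reads on all CDSs. Each label has 1 library and no replicate, from a number of animals that the labels do not give, so intervals cover the counting of reads and no test between tissues was made.

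Immediate early genes are transcribed without new protein synthesis when growth factors, calcium, stress or injury activate MAP kinases, SRF and CREB, and their mRNAs and proteins are known to be short-lived. They are used as markers of recent activation, including neuronal activity in the brain and the handling or dissociation of tissue before lysis. Fos, Fosb, Jun, Junb and Jund encode subunits of the AP-1 transcription factor, Atf3 a related stress-induced factor, Egr1 a zinc finger transcription factor, and Ier2, Ier3 and Zfp36 regulators that act beside them.

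The libraries held between 4504853 reads on CDSs, in that labelled colon, and 10635031, in that labelled brain. Markers went against 4 of the 6 labels, so each library is named here by its label and no tissue is read from it. Of 6 markers per tissue, all 6 of brain were highest under the label small intestine (summed 5146 RPKM, against 36.8 under the label brain), where Gfap, which marks astrocytes, was listed above 0 in no other library. All 6 of small intestine were highest under the label brain, 5 of 6 of colon under the label kidney, and all 6 of kidney under the label colon. Heart and lung markers were highest under their own labels. The libraries labelled brain and lung stood apart at low counts, with 341 and 298 mRNAs at 4 to 15 reads against 1253 to 2485 in the other 4, and with 16 and 10 of 95 subunits of RNA polymerase II, Mediator, TFIID and the proteasome without reads against 1 to 5. A member without reads in those libraries is therefore reported as listed at 0 or not listed, with the RPKM that 3 reads would give. Kri1 took between 0.400% of the reads, under the label lung, and 22.1%, under the label kidney, which lowers the RPKM of every other mRNA in proportion.

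**Figure D1:**
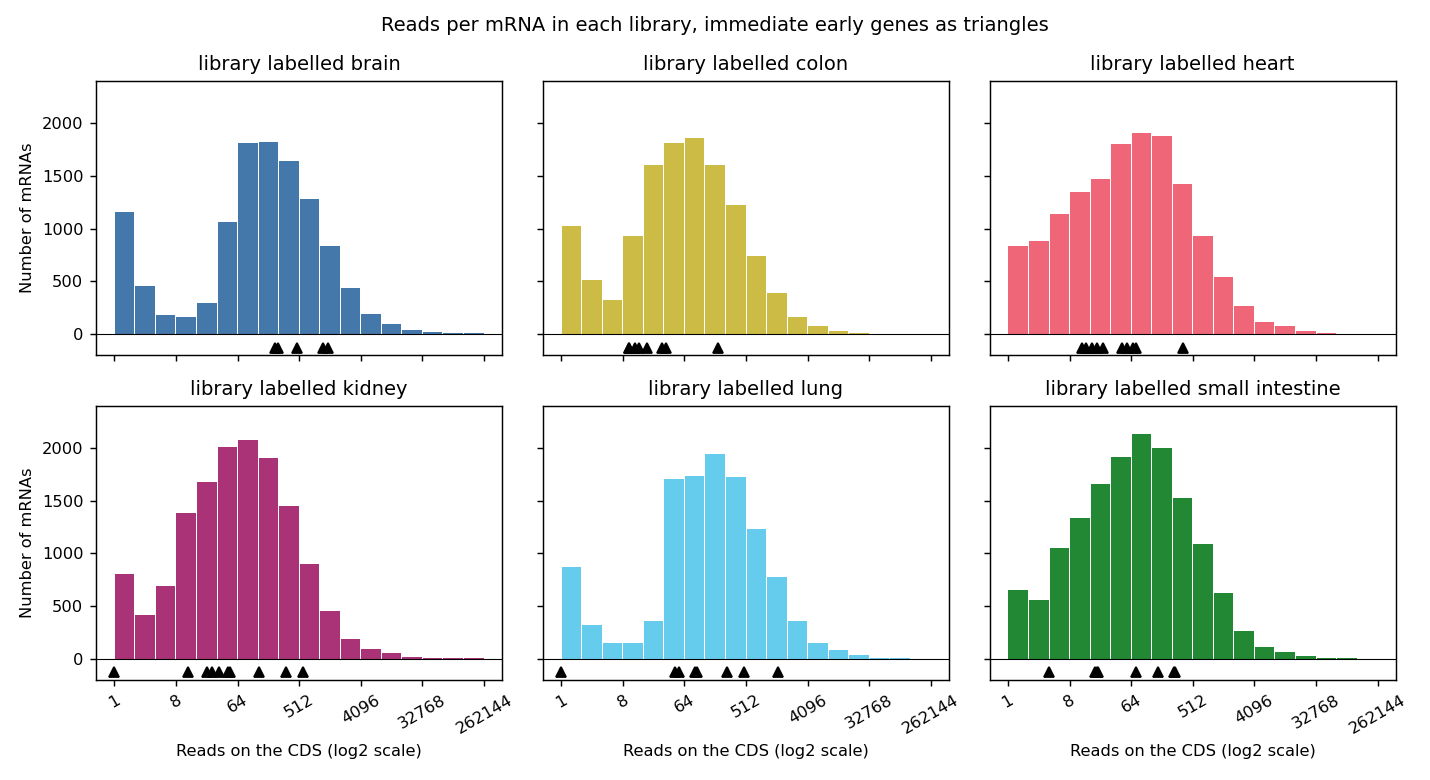
Number of mRNAs (vertical axis) by their reads on the CDS (horizontal axis, log2 scale, bins that double) in each of the 6 libraries, with triangles for the immediate early genes that had reads. The bins from 4 to 15 reads dip to 341 and 298 mRNAs under the labels brain and lung, where 5 and 8 of the 10 genes had reads, against 10 of 10 under the labels heart and kidney.

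The members carried few reads, and their summed level differed 4.63-fold between libraries. Their summed density was 355 RPKM under the label lung and 350 RPKM under the label brain, then 165 RPKM under kidney, 102 RPKM under heart, 94.5 RPKM under small intestine and 76.7 RPKM under colon. These sums were not corrected for Kri1, which took 22.1% of the reads under kidney, 14.1% under small intestine and 1.04% under heart. The order of heart and small intestine is therefore not settled. Under lung, Jun with 193 RPKM and Ier2 with 93.3 RPKM made up most of the sum. Scaled to reads rather than to length, the members took 327 of every 1000000 reads on CDSs under lung, 325 under brain, 162 under kidney, 111 under small intestine, 85.7 under heart and 72.8 under colon. Of the 60 pairs of a member and a library, 49 had reads and 11 had none. Without Fosb, whose mean was under 1 RPKM, 8 of 54 pairs had none (14.8%), near the 12.1% of pairs over all mRNAs with a mean of at least 1 RPKM. Heart and kidney labels were those under which all 10 members had reads. A lower summed level in whole tissue can stand for fewer cells of a type, for less mRNA per cell or for less translation of it, and these cannot be told apart here.

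Fos, the inducible AP-1 subunit that pairs with Jun proteins, spanned 35.1-fold. It had 94.1 RPKM (1141 reads) under the label brain, 67.2 RPKM (581 reads) under kidney, 32.1 RPKM (280 reads) under small intestine, 30.2 RPKM (266 reads) under lung, 3.50 RPKM (18 reads) under colon and 2.68 RPKM (25 reads) under heart. The 95% interval of the level under brain, from 88.7 to 99.7 RPKM, lay above that under kidney, from 61.9 to 72.9 RPKM, and the levels under small intestine and lung overlapped, as did those under colon and heart. Without the reads of Kri1, of which the kidney-labelled library had the highest share, the 2 highest levels were 96.0 and 86.3 RPKM, and their intervals overlapped, from 90.6 to 102 and from 79.4 to 93.6 RPKM. Fos was thus at or above 30.2 RPKM in 4 libraries and at or below 3.50 RPKM in the other 2. In its highest library 88.9% of the mRNAs with reads had a lower RPKM, and under the label colon 30.7% had.

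Fosb, whose truncated splice form is known to accumulate after repeated stimulation, was at the edge of detection. It had 2.58 RPKM (20 reads) under the label small intestine, 1.56 RPKM (12 reads) under kidney and 1.45 RPKM (12 reads) under heart. It was listed at 0 under colon, where 3 reads would give 0.657 RPKM, and was not listed under brain and lung, where 3 reads would give 0.278 and 0.383 RPKM. The intervals of the 3 libraries with reads overlapped, so their order was not resolved. With a mean of 0.931 RPKM, Fosb was the member that did not pass the filter of 1 RPKM used for the counts given further on, which 9 of 10 passed.

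Jun, the central partner of Fos in AP-1, had the highest level of the 10 in 4 of the 6 libraries, those labelled brain, colon, heart and lung, and was read in all 6. Its level was 193 RPKM (1496 reads) under the label lung, 128 RPKM (1363 reads) under brain, 44.8 RPKM (367 reads) under heart, 44.3 RPKM (200 reads) under colon, 43.2 RPKM (328 reads) under kidney and 20.4 RPKM (156 reads) under small intestine. The level under lung was 1.51-fold that under brain, with intervals of 183 to 203 and 121 to 135 RPKM that did not overlap, whereas heart, colon and kidney were within their counting error of each other. Between 74.2% and 94.2% of the mRNAs with reads had a lower RPKM than Jun in every library.

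Junb, which can replace Jun in AP-1 with a weaker activity on many promoters, had 20.5 RPKM (225 reads) under the label brain, 7.31 RPKM (34 reads) under colon, 6.64 RPKM (53 reads) under lung, 2.94 RPKM (23 reads) under kidney, 2.66 RPKM (21 reads) under small intestine and 2.37 RPKM (20 reads) under heart. The brain-labelled library was 2.80-fold above the next and apart from it in its interval. The lower 5 formed a group at 6.64 and 7.31 RPKM and a group from 2.37 to 2.94 RPKM, and the levels within each group overlapped. Without the reads of Kri1 the groups met, since lung and kidney then overlapped too.

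Jund, the Jun family member known for a steady level in unstimulated cells, varied little among the libraries in which it was read. It had 11.4 RPKM (90 reads) under the label lung, 9.72 RPKM (76 reads) under small intestine, 8.84 RPKM (74 reads) under heart, 6.51 RPKM (30 reads) under colon and 5.93 RPKM (46 reads) under kidney, a span of 1.92-fold in which each neighbour overlapped the next. Under the label brain it was listed at 0, where 3 reads would give 0.276 RPKM. That library held the highest level of Junb and the second highest of Jun.

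**Figure D2:**
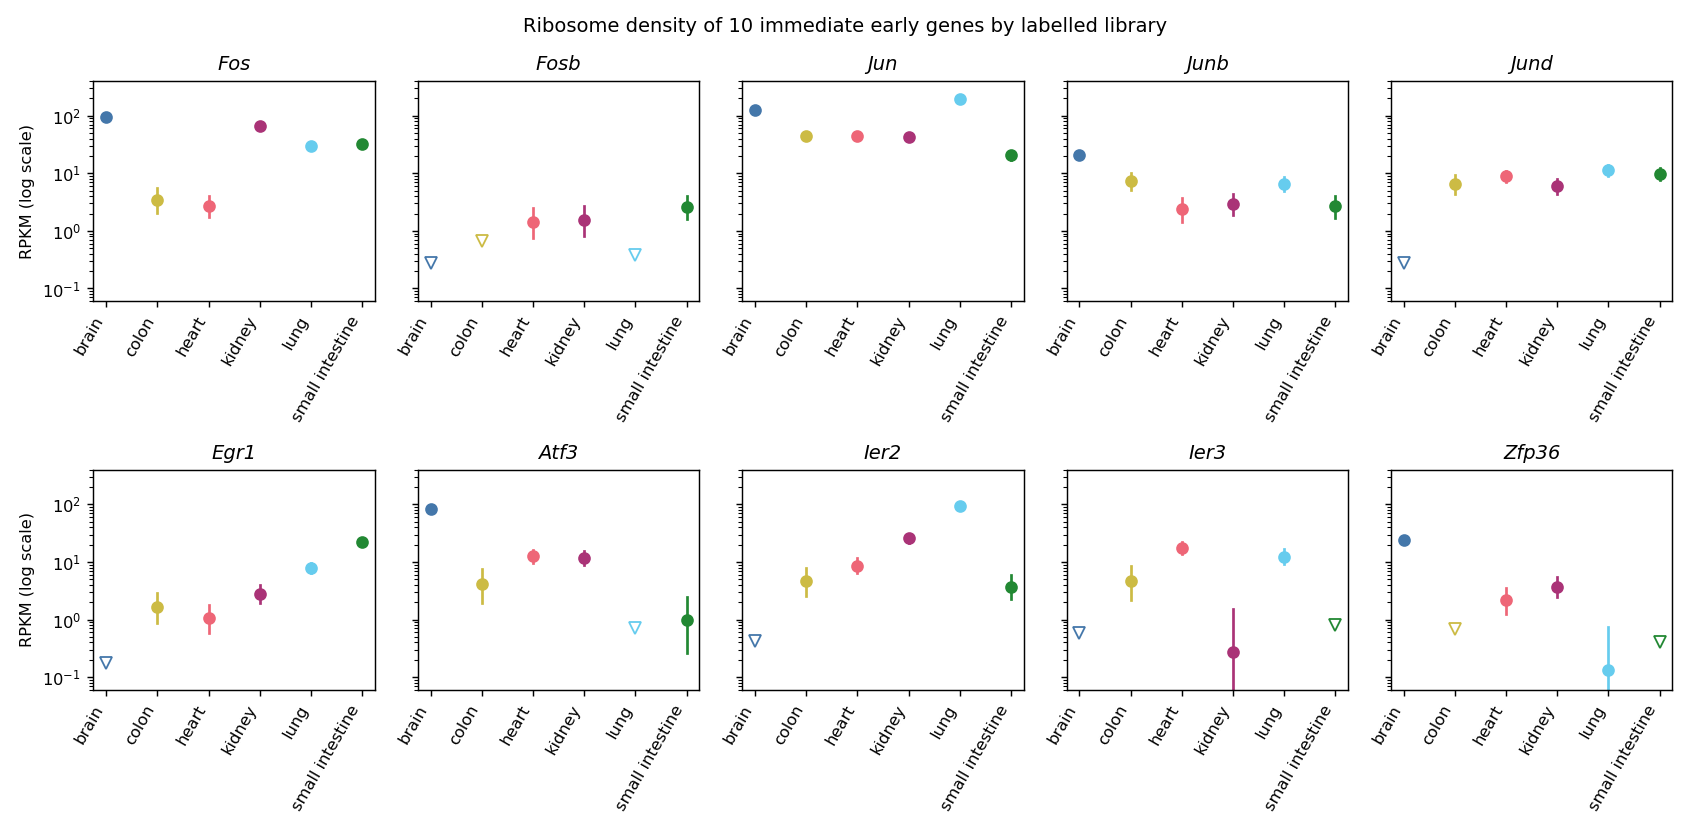
RPKM (vertical axis, log scale) of each of the 10 immediate early genes by library label; points are deposited values, bars are exact Poisson 95% intervals of the reads, and open triangles mark the RPKM of 3 reads where a gene had none. Jun lies at or above 20.4 RPKM in every library. Among libraries with reads, Fos, Egr1, Atf3, Ier2, Ier3 and Zfp36 each span more than an order of magnitude. The lowest points of Ier3 and Zfp36 rest on 1 read.

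Atf3, a bZIP factor of the ATF/CREB family induced by many stresses, had 82.8 RPKM (478 reads) under the label brain. Its next levels were 12.6 RPKM (56 reads) under heart, 11.9 RPKM (49 reads) under kidney, 4.09 RPKM (10 reads) under colon and 0.964 RPKM (4 reads) under small intestine. It was not listed under lung, where 3 reads would give 0.715 RPKM. The highest level was thus 6.57-fold above the second, and heart and kidney were not separated by their intervals.

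The 5 Fos and Jun members share the basic region through which bZIP proteins contact DNA, and its coding sequence is shown because reads from such related stretches could be confused. Each line gives 15 codons from GRCm39, read 5′ to 3′ on the coding strand, with G or C in the third position of a codon in capitals. The stretches lie at chr12:85522411-85522455 on the plus strand for Fos, chr7:19040502-19040546 on the minus strand for Fosb, chr4:94938672-94938716 (minus) for Jun, chr8:85704192-85704236 (minus) for Junb and chr8:71152520-71152564 (plus) for Jund, each within 1 coding exon.
Fos: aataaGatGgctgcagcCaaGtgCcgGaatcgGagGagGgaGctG
Fosb: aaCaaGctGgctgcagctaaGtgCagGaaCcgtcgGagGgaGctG
Jun: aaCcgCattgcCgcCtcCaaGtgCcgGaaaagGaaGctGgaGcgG
Junb: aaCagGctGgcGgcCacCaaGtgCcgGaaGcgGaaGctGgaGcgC
Jund: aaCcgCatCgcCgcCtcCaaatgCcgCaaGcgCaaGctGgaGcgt

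Jun and Jund were identical at 38 of these 45 bases but in 9 of 15 codons, and Fos and Fosb at 38 bases and in 8 codons. G or C ended 15 of 15 codons in Junb, 13 in Jun and in Jund, and 11 in Fos and in Fosb. Over the whole CDSs the longest run that any members shared was 20 nt, between Jun and Jund, followed within these families by 17 nt between Fos and Fosb. Reads down to 15 nt were kept and those that mapped to several mRNAs were left out, so the shortest reads from such runs are uncertain, whereas an exact read longer than 20 nt can come from 1 member alone. In levels, Jun and Jund differed in order: Jun was higher under the label brain than under the labels colon, heart, kidney and small intestine, and Jund was listed at 0 there.

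Egr1, the zinc finger factor much used as a mark of neuronal activity, was highest under the label small intestine, the library in which all 6 brain markers were highest. It had 22.3 RPKM (273 reads) there, 7.93 RPKM (98 reads) under lung, 2.80 RPKM (34 reads) under kidney, 1.67 RPKM (12 reads) under colon and 1.07 RPKM (14 reads) under heart. It was not listed under brain, where 3 reads would give 0.176 RPKM. The first was 2.82-fold above the second, with intervals of 19.8 to 25.1 and 6.44 to 9.66 RPKM, and kidney, colon and heart overlapped in turn. The neuron markers Snap25, Syt1, Nefl, Rbfox3 and Stmn2 summed to 3991 RPKM under this label and to between 3.34 and 127 RPKM in the other 5, all 5 being highest there, and Rbfox3 was at 0 in 4 of the others. The part of neurons in the level of Egr1 was not tested.

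Ier2, a nuclear protein of growth factor responses encoded at chr8:85387960-85389483 on the minus strand, was the member with the highest level relative to the second among those highest under the label lung. Its levels were 93.3 RPKM (478 reads) under the label lung, 25.9 RPKM (130 reads) under kidney, 8.66 RPKM (47 reads) under heart, 4.69 RPKM (14 reads) under colon and 3.75 RPKM (19 reads) under small intestine, and it was not listed under brain, where 3 reads would give 0.425 RPKM. The level under lung was 3.61-fold that under kidney, and the lowest 3 overlapped in turn. In the lung-labelled library 87.9% of mRNAs with reads had a lower RPKM.

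Ier3, a small stress-induced protein that modulates cell survival and ERK signalling, had 17.6 RPKM (69 reads) under the label heart and 12.4 RPKM (46 reads) under lung, with overlapping intervals of 13.7 to 22.2 and 9.08 to 16.5 RPKM. It had 4.62 RPKM (10 reads) under colon, whose interval met that of lung without the reads of Kri1, and 0.275 RPKM, from 1 read, under kidney. It was listed at 0 under small intestine and not listed under brain, where 3 reads would give 0.818 and 0.588 RPKM. Of the 10 members, Ier3 alone had its highest level in the heart-labelled library, where Fos and Junb had their lowest levels.

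Zfp36, or tristetraprolin, binds AU-rich elements in the 3′ UTRs of cytokine and immediate early mRNAs and starts their decay. It had 24.4 RPKM (248 reads) under the label brain, 3.72 RPKM (27 reads) under kidney, 2.17 RPKM (17 reads) under heart and 0.135 RPKM (1 read) under lung. It was not listed under colon and small intestine, where 3 reads would give 0.696 and 0.410 RPKM. The highest level was 6.55-fold above the second, and kidney and heart overlapped.

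Windows with ATTTA are shown for the 4 members in which a 30-base window of the 3′ UTR held at least 2 copies. Egr1 was not searched for such a window. The same 4 are the members with 4 or more copies of this pentamer or with the longer site TTATTTATT in the 3′ UTR. Each line gives the 30-base window with the most copies of ATTTA, in capitals, from GRCm39. None of these windows holds the longer site in full. The Fos and Zfp36 windows end in bases that begin that site, so a copy may run past their ends. The windows lie at chr12:85523864-85523893 (plus strand) for Fos, chr4:94937447-94937476 (minus) for Jun, chr17:36133368-36133397 (plus) for Ier3 and chr7:28076388-28076417 (minus) for Zfp36.
Fos: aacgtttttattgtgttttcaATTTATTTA
Jun: gtgatcATTTAtaatcataggaaagATTTA
Ier3: ctccgtgtctaattaatATTTAtgtATTTA
Zfp36: tgggccctttATTTAtgacgactttATTTA

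On the sense strand, ATTTA was found in the 3′ UTRs of 9 of 10 members, beside 69.3% of the 18161 mRNAs matched to the annotation, and TATTTAT, which contains it, in 7 of 10 beside 30.9%. TTATTTATT, which contains both, was in the 3′ UTRs of Fos and Zfp36 and of 8.67% of all. Ier3 held 5 copies of ATTTA, Fos and Jun 4 each, Atf3 and Zfp36 3 each, Junb and Egr1 2 each, Fosb and Jund 1 each, and Ier2 none. The members' 3′ UTRs were shorter, with a median of 794.5 nt against 1228 nt, and their median density of ATTTA was 2.89 per kb against 1.29 per kb over all mRNAs. At their highest levels, Ier2, without any copy, reached 93.3 RPKM under lung and Ier3, with the most, 17.6 RPKM under heart. Jun and Fos, with 4 each, had the highest means over the 6 libraries, 78.9 and 38.3 RPKM. Whether copies of ATTTA go with the levels was not tested.

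The CDSs of the members were short and rich in codons that end in G or C (GC3), the codon property for which the study used these tissues. The median CDS had 1011 nt against 1326 nt, and the median GC3 share was 68.6% of synonymous codons against 58.9%. All 10 members lay over 50%, as did 73.6% of all mRNAs, from 59.7% in Atf3 to 84.6% in Jund, which exceeded 99.0% of all mRNAs. Jun, Junb, Jund and Ier2 have a single exon, 4 of 10 members beside 3.61% of all mRNAs. In the promoter window from 250 bases before to 50 after the annotated start, searched on both strands, the CREB site TGACGTCA was present in Jund, 214 bases before the start, and in Ier2, 43 bases before it, and in 2.42% of all windows. The SRF site known as the CArG box was in none of the 10 windows and in 1.36% of all, which says only that these letters are not in this window. Jun, Junb, Jund, Atf3, Ier3 and Zfp36 overlap an annotated gene on the opposite strand, and whether counting used strand is not given in the sources used here.

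**Figure D3:**
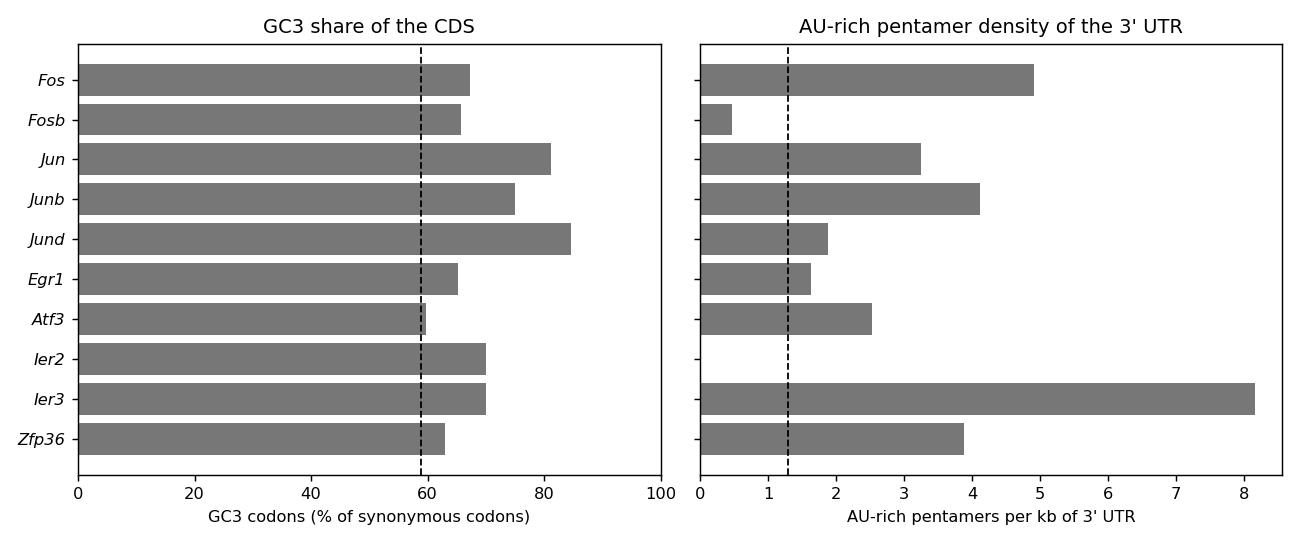
GC3 codons as a percent of synonymous codons of the CDS (left) and copies of the AU-rich pentamer per kb of 3′ UTR (right) for the 10 immediate early genes, with a dashed line at the median of all 18161 matched mRNAs. All 10 GC3 shares lie above the median of 58.9%, and the pentamer density is above its median of 1.29 per kb in all but Fosb and Ier2, which has none.

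Each library was next set against the other 5 by the difference of log2(RPKM + 1) from their median, a scale that understates the change of low mRNAs. A difference of at least 2-fold was counted for the 9 members and for all 13521 mRNAs with a mean of at least 1 RPKM, and the 6 comparisons share libraries. The counts describe these libraries, and members had passed on their mean over all 6.

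Under the label brain the members split into those far above and those without reads. Atf3, Fos, Jun, Junb and Zfp36, 5 of 9, were at least 2-fold above the other libraries, beside 22.6% of all mRNAs, with Zfp36 at 4.48, Atf3 at 4.04, Junb at 2.45, Fos at 1.61 and Jun at 1.51 on the log2 scale. The other 4, Jund, Egr1, Ier2 and Ier3, were at least 2-fold below, beside 26.1%, and none of them had reads there. The members' median difference was 1.51, against -0.045 over all mRNAs. With values lacking reads set to 3 reads these 4 were at -2.95, -1.69, -2.76 and -1.82.

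A number of mRNAs were without reads in the same library at like levels elsewhere. Jund and Ier2 had medians of 8.84 and 8.66 RPKM in the other 5 libraries, and of all mRNAs at 5 to 10 RPKM there 13.3% had no reads under the label brain, against 1.26% under heart. Egr1 and Ier3 had medians of 2.80 and 4.62 RPKM, and at 2 to 5 RPKM 25.9% had none. Atf3, not listed under the label lung, had a median of 11.9 RPKM elsewhere, and at 10 to 20 RPKM 6.70% of all mRNAs had no reads under lung. Over all libraries 6 of the 9 members with a mean of at least 1 RPKM lacked reads at least once, beside 36.6% of all such mRNAs. The part of the low-count gap in these absences was not tested.

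Under the label lung, Ier2 at 4.05, Ier3 at 3.39, Jun at 2.10 and Egr1 at 1.74 were at least 2-fold above, 4 of 9 beside the highest background of the 6, 31.5% of all mRNAs. Atf3 and Zfp36, 2 of 9, were below, beside 19.8%. The median of the members was 0.96 against 0.23 over all mRNAs, and it was 0.43 with median-of-ratios scaling, which moved all mRNAs of that library by -0.48. The same library had the highest summed leukocyte markers, 1168 RPKM against 26.1 to 86.1 RPKM, with 6 of the 7 listed highest there and Ptprc read in all 6 libraries, endothelial markers, 2181 RPKM against 39.8 to 444 RPKM with 5 of 5, and blood markers, 466 RPKM against 0.426 to 83.0 RPKM with 4 of 4. The part of these cells in the members' levels was not tested.

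The kidney-labelled library had Ier2 at 2.24, Zfp36 at 2.06, Atf3 at 1.34 and Fos at 1.13 above the others, 4 of 9 beside 19.3%, and Ier3 below at -2.14, 1 of 9 beside 17.6%. Its count above was thus as high as under lung beside a lower background, with a median of 0.51 against -0.030 over all mRNAs. That median was 0.14, with 2 members above, when the mean of the others was the reference, and 0.73 with median-of-ratios scaling. Smooth muscle markers, 4 of 4, were highest in this library at 3835 RPKM, followed by 2958 RPKM under the label brain and 31.6 to 583 RPKM elsewhere, and Fos had its 2 highest levels under these labels. The part of muscle cells in the level of Fos was not tested.

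The other labels had members on both sides or mostly below, and the counts under heart and colon were near the background. Under heart, Ier3 at 3.86, Zfp36 at 1.48 and Atf3 at 1.42 were above, 3 of 9 beside 20.1%, and Fos at -3.17 and Junb at -1.18 were below, 2 of 9 beside 20.1%. Under colon, the shallowest library, Ier3 at 2.14 and Junb at 1.08 were above, 2 of 9 beside 23.2%, a count that was 0 with the mean of the others as reference, and Fos at -2.88, Zfp36 at -1.66 and Atf3 at -1.34 were below, 3 of 9 beside 19.2%. Zfp36 had no reads in that library and was at -0.90 when set to 3 reads, past no threshold. Under small intestine Egr1 at 3.13 was the member above, 1 of 9 beside 27.8%, and Atf3, Ier3, Zfp36, Jun, Junb and Ier2 were below, 6 of 9 beside 22.6%, from -2.72 in Atf3 to -1.02 in Ier2. Jun at -1.10, Junb at -1.06 and Ier2 lay close to 2-fold, and 4 of 9 were below without the reads of Kri1, which took 14.1% of that library, with Junb then at -0.90 and Ier2 at -0.86. The median of the members was -1.06 there, -0.51 under colon and 0.39 under heart, against 0.0023, 0.013 and 0 over all mRNAs.

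**Figure D4:**
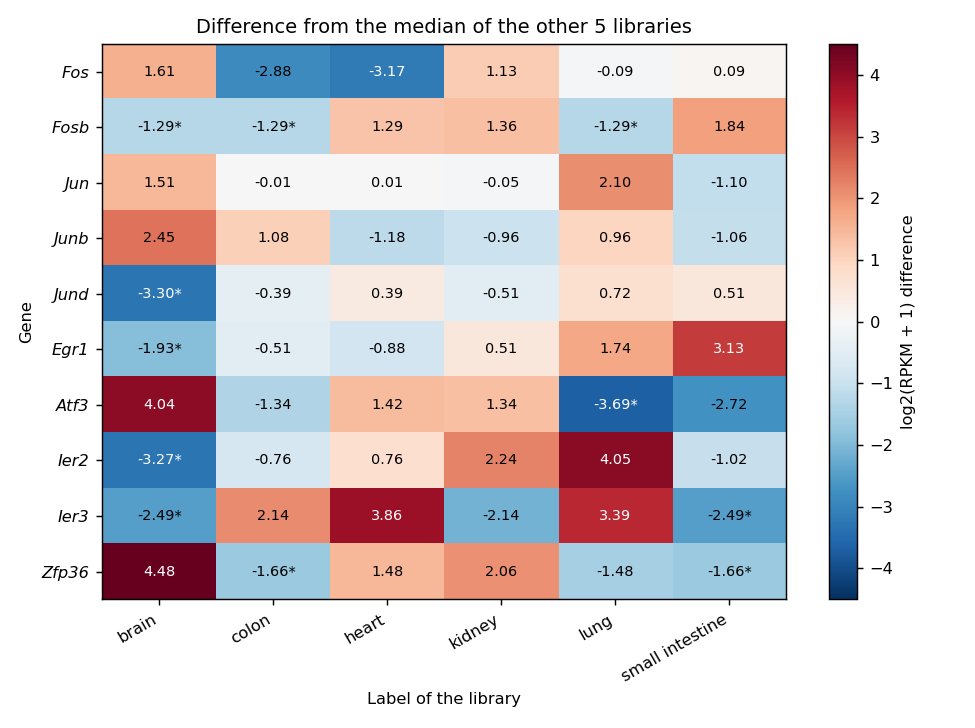
Difference of log2(RPKM + 1) of each immediate early gene (rows) in each library (columns, by label) from the median of the other 5 libraries; red is higher, blue is lower, and an asterisk marks a gene without reads in that library. Under the label brain Zfp36 (4.48) and Atf3 (4.04) stand above while Jund (-3.30) and Ier2 (-3.27) have no reads, and Egr1 (3.13) is the highest of the column under small intestine.

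The members differed among themselves in profile. Over the 9 members, the median range of log2(RPKM + 1) across the 6 libraries was 4.54, against 3.19 over all mRNAs. With each gene centred on its own mean over the 6 libraries, the most alike pairs were Jun and Junb, with a root mean square difference of 0.81 on the log2 scale, Atf3 and Zfp36 with 0.83, and Jund and Egr1 with 1.07, and the least alike were Atf3 and Ier2 with 3.79. Fos, Atf3, Junb and Zfp36 were highest under the label brain, Jun, Jund and Ier2 under lung, Egr1 and Fosb under small intestine and Ier3 under heart, and none under colon or kidney. The mean profile of the 10 ran from -0.54 under colon to 0.49 under lung on the log2 scale. The members lay between 0.86 (Jun) and 2.10 (Atf3) from it, with a median of 1.56. The 6965 other mRNAs with a mean of at least 10 RPKM had a median of 1.17. These sets are unlike, since the members were not held to that limit, with means from 0.931 (Fosb) to 78.9 RPKM (Jun). The 5 nearest of these others, picked as such, were C1qc at 0.13, Rbm12 and Arpc2 at 0.17, Adam17 at 0.18 and Rac1 at 0.19.

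Other immediate early transcription factors were counted in the same way, 16 of 19 passing the filter of 1 RPKM. Under the label lung 11 were at least 2-fold above the other libraries and 0 below (31.5% and 19.8% of all mRNAs), and under brain 8 and 2 (22.6% and 26.1%), with median differences of 1.47 and 1.06. Kidney had 5 above and 2 below (19.3% and 17.6%), small intestine 5 and 7 (27.8% and 22.6%), heart 2 and 6 (20.1% each way), and colon 1 and 7 (23.2% and 19.2%), where the median was -0.79.

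Named by level and by range, Ier5, a heat shock factor regulator, had 126 RPKM under the label lung, 101 RPKM under brain, 62.9 RPKM under small intestine and 25.5 to 43.0 RPKM elsewhere. Fosl2, a Fos relative in AP-1, had 103 RPKM under brain, 43.4 under lung and 37.9 under kidney, and 7.94 to 12.3 RPKM elsewhere. Maff, a small Maf factor, had 52.2 RPKM under brain and 33.8 under kidney and no reads under colon, and Klf4, an epithelial Krüppel-like factor, had 45.7 RPKM under kidney and 44.1 under brain and 0.306 to 12.5 RPKM elsewhere. Maff and Klf4, like Fos, thus had their 2 highest levels under the labels brain and kidney, whose libraries had the highest small intestine and colon markers. Egr3 with 15.8 RPKM and Egr4 with 8.03 RPKM were highest under small intestine, as Egr1 was, and Egr4 had no reads in the other 5 libraries. These relatives of Egr1 were picked out after their values were seen. Egr2, also in the list, had 2.75 RPKM (30 reads) under lung, its highest level, and 2.50 RPKM (27 reads) under small intestine.

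Immediate early effectors, 24 of 25 passing the filter, had 14 above and 2 below under the label lung, where 31.5% and 19.8% of all mRNAs were. There were 9 above and 7 below under brain (22.6% and 26.1% of all), 7 and 7 under small intestine (27.8% and 22.6%), 6 and 8 under heart (20.1% each way), 4 and 4 under kidney (19.3% and 17.6%) and 4 and 9 under colon (23.2% and 19.2%). The 7 below under brain and the counts under small intestine and kidney were near these shares. Gadd45b, a stress sensor, had 945 RPKM under lung, 184 under brain, 98.6 under kidney and 31.8 to 53.2 RPKM elsewhere. Nfkbia, the inhibitor of NF-κB, had 141 RPKM under lung and 78.0 under brain and 1.53 RPKM under small intestine, a pattern in which Jun was also highest and lowest. Ccn1, a matricellular protein, had 117 RPKM under lung, 14.0 RPKM under brain and 48.8 to 86.0 RPKM elsewhere. Arc, which acts at synapses, had 67.3 RPKM under small intestine, where Egr1 and the neuron markers were highest, and 0.0791 to 2.80 RPKM elsewhere.

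**Figure D5:**
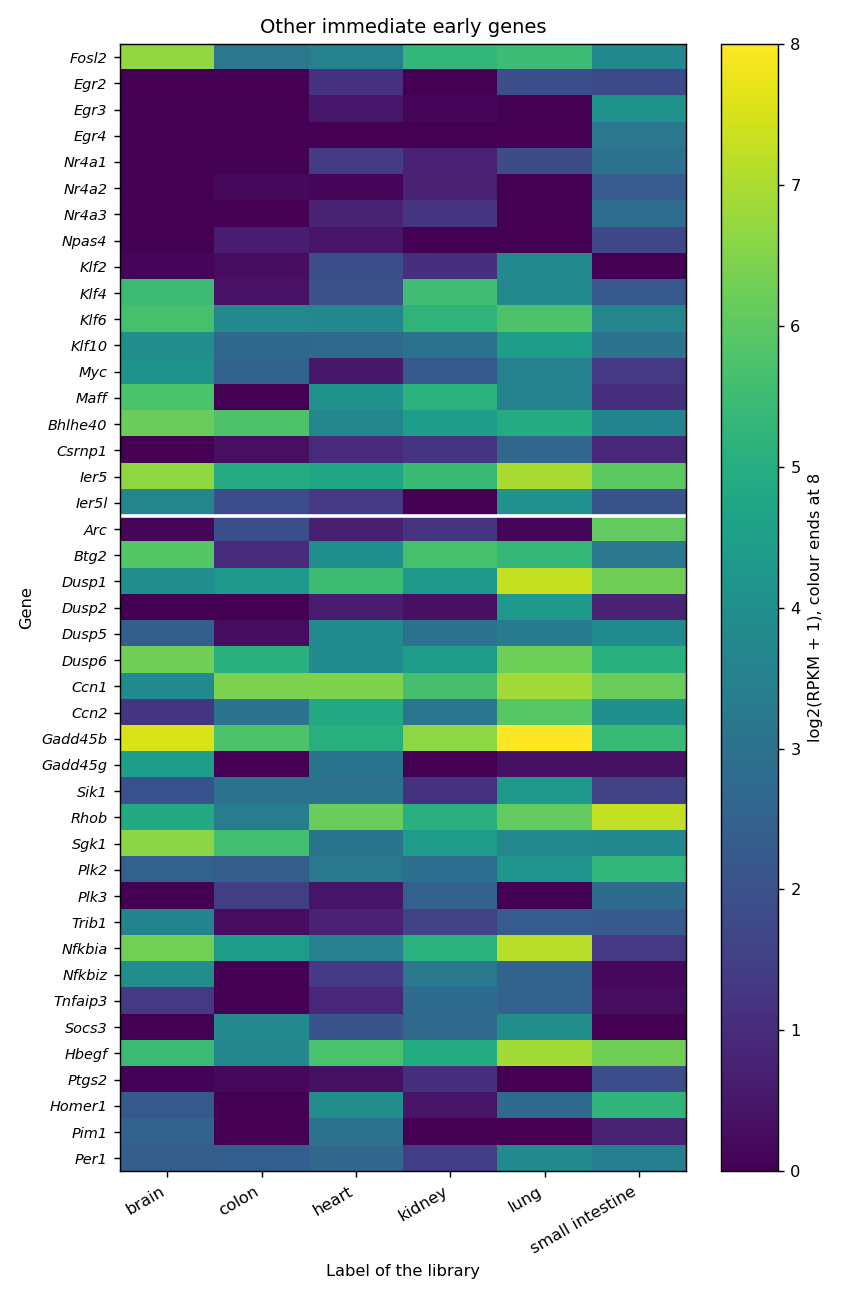
log2(RPKM + 1) of other immediate early genes (rows) in the 6 libraries (columns, by label), with transcription factors above the white line and effectors below it; the colour scale ends at 8 and dark cells are at or near 0. Gadd45b is brightest under lung (945 RPKM). Arc is bright under small intestine, Egr3 and Egr4 reach lower to middle tones there, and all of these are darker elsewhere.

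Genes that act upstream of the members were read widely, 13 to 18 of 18 per library. Of these 18 kinases and factors, 17 passed the filter, with 6 above and 3 below under the label brain (22.6% and 26.1% of all mRNAs), 5 and 2 under heart (20.1% each way), 5 and 4 under small intestine (27.8% and 22.6%), 3 and 6 under lung (31.5% and 19.8%), and 2 and 5 under both colon (23.2% and 19.2%) and kidney (19.3% and 17.6%). With 17 genes, most of these counts were near or below the share over all mRNAs. Mapk9, or JNK2, which phosphorylates Jun, had 924 RPKM under small intestine and 108 to 208 RPKM elsewhere. Map2k2, or MEK2, had 63.6 to 132 RPKM across the 6 libraries, whereas Mapk8, or JNK1, ranged from 0.303 RPKM under lung to 54.4 RPKM under small intestine, and Atf1, a CREB relative, from no reads under lung to 28.8 RPKM under heart. Jun was lowest in the library in which Mapk8 and Mapk9, the JNK mRNAs in this list, were highest.

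Partners and corepressors of the members, 7 of 8 passing, had 4 above and 2 below under the label lung (31.5% and 19.8% of all mRNAs), 3 and 3 under small intestine (27.8% and 22.6%), and 0 or 1 above elsewhere. With 7 genes these counts do not set the list apart from all mRNAs. Nab2, which binds Egr1 and represses it, had 41.0 RPKM under small intestine and 39.6 RPKM under lung, the labels of the 2 highest levels of Egr1, and 7.87 to 22.0 RPKM elsewhere. Zfp36l2, a relative of Zfp36, had 28.8 RPKM under lung, where Zfp36 had 1 read, and 5.18 RPKM under brain, where Zfp36 was highest. Its second highest level was 17.9 RPKM under kidney, as for Zfp36. Its lowest was 4.14 RPKM under small intestine, where Zfp36 was not listed. Jdp2 and Batf are bZIP partners of the Jun proteins, and Jdp2 was highest under small intestine, ranged from 2.75 to 12.1 RPKM in the next 4 libraries and had no reads under lung, whereas Batf had 8.97 RPKM under lung, 0.326 RPKM under heart and no reads in the other 4.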

How the data were processed

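Ribo-seq libraries of 6 mouse tissue samples were analysed, 1 per label. For each library the deposited table gives an RPKM value per mRNA. The methods, written for macrophage libraries and assumed here for tissues, name Cutadapt and STAR with GRCm39 (Ensembl release 107), use per gene the mRNA whose CDS is longest, and discard reads below 15 nt, with over 2 mismatches or with several mapping sites.

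RPKM multiplied by CDS length gave whole multiples of 1 read for 100% of values (tolerance 0.01), from which reads were recovered. Intervals are exact Poisson 95% intervals, which with 3 reads as the floor cover counting error only, since the reads carry no molecular identifiers. Differences used log2(RPKM + 1) against the median of the other 5 libraries for mRNAs with a mean of at least 1 RPKM, and 2-fold was counted. No test was possible with 1 library per tissue. Named were the 10 members, of each list the 2 mRNAs with the highest mean and the 2 with the largest range, and the 5 nearest the members' mean profile. Members and lists were chosen with earlier results of these data known. The alternatives comprised 8 set earlier and 3 added after the data were seen. Sequences, promoters and 3′ UTRs came from GRCm39 with the GENCODE M39 annotation, where 18161 of 18437 mRNAs (98.5%) had the same CDS length. Recovery of reads was tested on simulated data. Python 3.11.15, numpy 2.4.6, pandas 2.3.3, scipy 1.17.1 and matplotlib 3.10.9 were used.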

Additional observations from a re-analysis of the deposited data

How the results depend on the processing

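Across 8 alternative settings and 3 more chosen after seeing the data, no median of the members reversed. The difference of a member in its highest library did not reverse either. That library was picked as the highest from the same values, so the sign of this difference was set by the choice. Of the recomputed counts of members, 44 of 54 above and 46 of 54 below the other libraries were within 1.5 times the values given. Of the medians, 41 of 48 were within the counting error of the library at hand, with the reference libraries held fixed. For single members in the libraries so picked, 78 of 80 differences stayed on the same side of 2-fold. Where a value moved, the cause was not tested, except that a stricter fold calls fewer by construction.

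With a 4-fold limit, 3 members were above under the label brain, 3 under lung, 2 under kidney, and 1 each under colon, heart and small intestine. Below that limit were 3 under brain, 2 under small intestine, and 1 each under colon, heart, kidney and lung. No share over all mRNAs was set beside these 4-fold counts. A pseudocount of 0.1 put 2 members below under kidney. Without the reads of Kri1, 1 member was above under colon, and 4 rather than 6 were below under small intestine. Both counts were the same when mitochondrially encoded mRNAs were left out too, and the median under brain was then 1.43. Without those reads the intervals of Fos under brain and kidney, of Junb under lung and kidney and of Ier3 under lung and colon, apart otherwise, overlapped. Median-of-ratios size factors gave medians of 1.29 under brain and 0.43 under lung, 1 member above under colon and 1 below under heart, and they moved all mRNAs by -0.48 on the log2 scale under lung, -0.17 under colon, -0.10 under brain, 0.15 under heart, 0.16 under kidney and 0.19 under small intestine. With the mean of the other libraries as reference, medians were 1.31 under brain, 0.060 under heart and 0.14 under kidney, 0 members were above under colon and 2 under kidney, and Jund under lung was at 1.15, past 2-fold. Leaving the libraries labelled brain and lung out of the reference, an alternative chosen after seeing the data, gave 1 member below under heart, 1 below under lung, 2 above under small intestine, a median of 1.35 under lung and 0.55 for Fosb under small intestine, short of 2-fold. Setting values of under 4 reads to 0, or values without reads to 3 reads, both chosen after seeing the data, moved no count by more than 1.5 times. The filter on low values moved no background share by more than 1.5 times.

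No library could be left out of a group and no replicate block could be fitted with 1 library per tissue. No paired analysis was possible because each label has 1 library. Depth limits the levels of under 10 reads, which were 3 of the 49 with reads, and the absences under the labels brain and lung, where few mRNAs had 4 to 15 reads.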

Other observations

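Heat shock mRNAs, which respond to many of the same stresses as the immediate early genes, were counted in the same way. Of 10, 9 passed the filter of 1 RPKM, and 3 were at least 2-fold above the other libraries under the label colon (23.2% of all mRNAs), 3 under heart (20.1%), 3 under lung (31.5%), 1 under kidney (19.3%), 1 under small intestine (27.8%) and 0 under brain (22.6%), counts near those shares in a list of 9. Under kidney 5 were below (17.6% of all). The median difference on the log2 scale was 0.74 under colon, 0.48 under lung and -1.08 under kidney. Hspa8, the constitutive Hsc70, had 2181 RPKM under colon and 539 to 1569 RPKM elsewhere. Hspb1, a small heat shock protein abundant in muscle, had 1740 RPKM under heart, 861 RPKM under lung and 19.2 RPKM under small intestine. Bag3, a co-chaperone also abundant in muscle, had 118 RPKM under heart and 3.93 to 42.5 RPKM elsewhere. Hspa1a was listed at 0 or not listed in all 6 libraries, where its near-identical copy Hspa1b can share reads and multi-mapped reads were left out. Hspa1b itself had 8.07 RPKM (70 reads) under colon, 3.76 RPKM (56 reads) under lung and no reads elsewhere.

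Inflammatory cytokines and chemokines were hardly read. Of 10, 7 were listed in some library and 2 passed the filter. Cxcl10, an interferon-induced chemokine, had 22.9 RPKM under lung and 0 to 0.449 RPKM elsewhere. Ccl2, a monocyte attractant, had 17.8 RPKM under kidney, 17.3 RPKM under heart, 7.62 RPKM under brain, a lower level under colon and no reads under lung and small intestine. Tnf, Cxcl1 and Cxcl2 had no reads in any library.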
